A study of Mus musculus with 6 samples.

Results

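Adenylyl cyclases make cyclic AMP (cAMP) from ATP at the cell membrane. Receptors switch them on through a stimulatory G alpha protein, either Gs alpha (gene Gnas) or its close relative Golf (gene Gnal). The membrane cyclases differ in their other inputs, which include calcium with calmodulin, the beta-gamma subunits of G proteins and inhibitory G alpha, so the set of cyclases in a cell shapes how its cAMP responds to neurotransmitters. In astrocytes, the glial cells that support neurons, cAMP acts on glycogen breakdown, proliferation and cell shape.

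The genes described here are 8 membrane adenylyl cyclases (Adcy1, Adcy2, Adcy3, Adcy5, Adcy6, Adcy7, Adcy8 and Adcy9) with Gnas and Gnal, chosen by name. A probe set, a group of oligonucleotides on an Affymetrix array that is read as 1 value, was included when the platform annotation gave it a symbol of 1 of these genes. This gave 28 of the 45037 non-control probe sets, for 10 of the 18193 genes named on the array. All 10 genes were represented, by 1 to 5 probe sets each. Total RNA of mouse astrocytes was labelled as biotinylated amplified RNA and read on 6 arrays, 3 of neocortical and 3 of cerebellar astrocytes. The ICR strain was named for the neocortical arrays only, so a difference between regions and one between strains cannot be told apart if the cerebellar mice were of another strain. No genotype, treatment, age or culture step is stated for either group. Nothing says that the 3 arrays of a region were hybridised with RNA of different mice or dissections, so the p-values rest on array-to-array spread that may be technical.

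The levels below are quantile-normalized signal in arbitrary units, and brightness served to choose, filter and order probe sets, not to compare the transcript levels of genes. Differences are on the log2 scale, cerebellar minus neocortical, with signal below 62.2, the 20th percentile over all arrays, set to that value as a floor. They come from a limma fit with Benjamini-Hochberg adjustment over the 27022 probe sets kept by a brightness filter, and a difference was called at an adjusted p under 0.05. Bacterial control probe sets read up to 257.6, and signal at or under that value is referred to as the dim range. Of the 12 astrocyte markers, 11 lay above the dim range on every array, and the summed signal of the list was 163599 to 233729 on cerebellar and 225808 to 273015 on neocortical arrays. Of the 15 neuronal markers, 8 lay in the dim range on every array, among them Snap25, Nefl, Slc17a7, Gabra6 and Neurod1, while Stmn2 was bright in both groups. Microglial markers summed to 9411 to 48951 on cerebellar and 14500 to 39548 on neocortical arrays, and fibroblast markers to 68422 to 238025 and 93376 to 144353. Oligodendrocyte lineage markers summed to 54286 to 83709 and 74204 to 86022, endothelial markers to 1234 to 2640 and 2320 to 2875, and ependymal and choroid plexus markers to 8061 to 15143 and 13740 to 17597. Of 7 tested oligodendrocyte lineage markers, Olig2 (5.99-fold) and Olig1 (3.33-fold) were lower in cerebellar astrocytes and Mbp was 6.27-fold higher, with 2 neocortical arrays of Mbp in the dim range. Of 10 fibroblast and meningeal markers, Ogn (5.43-fold) and Thy1 (1.67-fold) were lower and Twist1 was 2.06-fold higher. Folr1, 1 of 5 tested ependymal and choroid plexus markers, was 4.19-fold lower, and Kdr, 1 of 2 tested endothelial markers, was 2.96-fold lower. None of the 12 microglial markers passed in limma (none at an unadjusted p under 0.05 either). For the Gapdh control, the 3′ to 5′ signal ratio was 0.913 to 1.07 on cerebellar and 0.865 to 0.883 on neocortical arrays, so every cerebellar array had the higher ratio. The part of these differences in the results below was not tested.

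Adcy2 was the only gene of the set with a difference between the regions that passed the test, and it was lower in cerebellar astrocytes. Of the 28 probe sets, 19 passed the brightness filter, and all 10 genes kept at least 1. Of these 19, 1 was lower in cerebellar astrocytes (5.8% of all tested probe sets were), none was higher (4.95% of all were), and 18 did not pass. Calls in either direction thus made up 5.26% of the tested probe sets of the set and 10.7% of all. At an unadjusted p under 0.05, limma gave 1 higher and 3 lower of the 19, where 13.2% of all tested probe sets were higher and 13.1% lower. Groups did not overlap for 6 of the 19, or 31.6%, against 32.4% of all probe sets tested. The median log2 difference over the 19 was -0.15, against 0.01 over all probe sets tested. The 9 probe sets that did not pass the filter belonged to Gnas, Gnal, Adcy3, Adcy5 and Adcy7, and 7 of them lay in the dim range on every array. In all, 9 of the 10 genes had a probe set above the dim range on every array, Gnal being the exception.

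**Figure D1:**
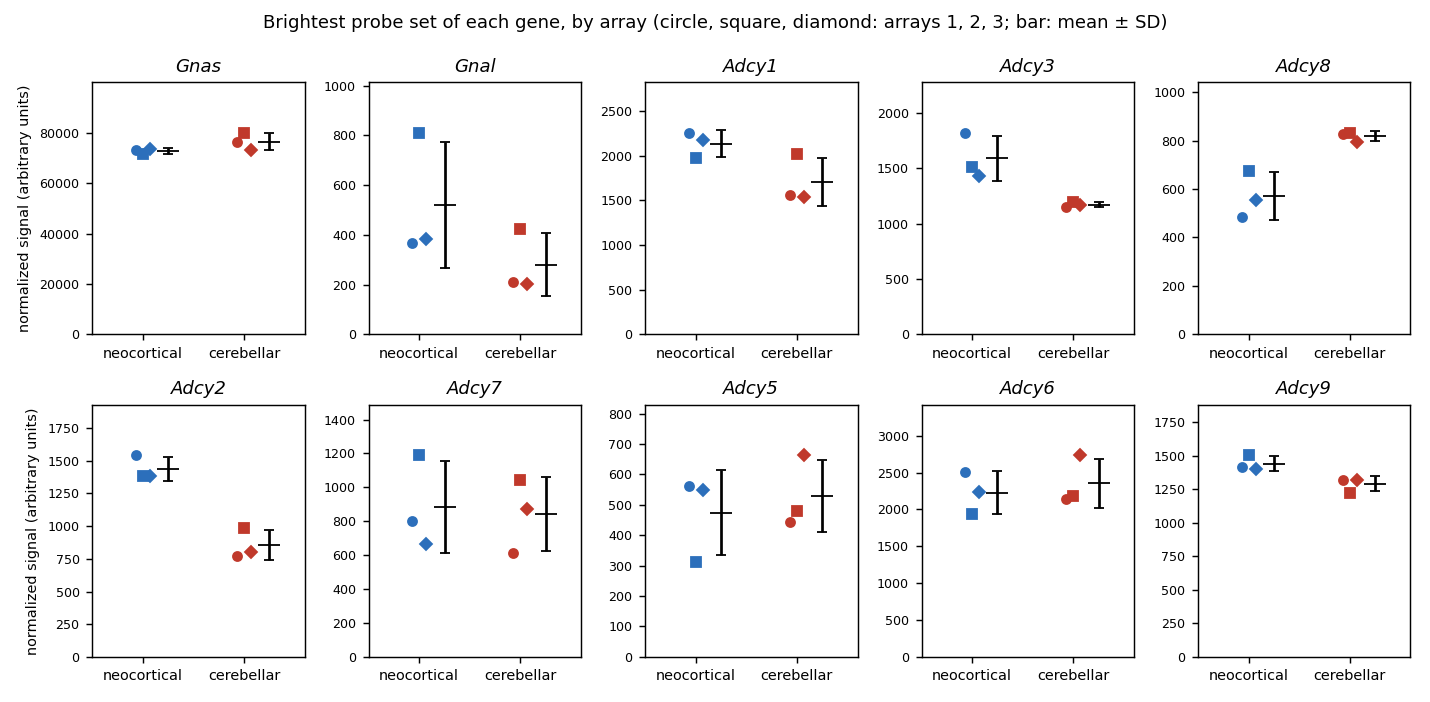
Quantile-normalized signal (arbitrary units, axis from 0 and separate for each gene) of the brightest probe set of each of the 10 genes on the 3 neocortical (blue) and 3 cerebellar (red) arrays; circles, squares and diamonds are arrays 1, 2 and 3, and the bars give the mean ± SD (n = 3). Adcy2, Adcy3 and Adcy9 show every cerebellar array below every neocortical one, Adcy8 shows the reverse order, and the groups overlap for the other genes.

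Among the cyclases that G protein beta-gamma subunits stimulate together with Gs alpha, Adcy2 differed between regions and Adcy7 varied among arrays of both. Adcy2 (probe set 1455462_at, its only one) read 773, 986 and 802 on the cerebellar arrays and 1543, 1382 and 1385 on the neocortical arrays. The groups did not overlap, and every array was above the dim range. The means were 853.6 ± 116 and 1437 ± 92.2 (SD, n = 3 each), which is a fitted 1.69-fold lower signal in cerebellar astrocytes. The log2 difference was -0.76 ± 0.158 (SE), with a 95% confidence interval from -1.12 to -0.40 and a limma adjusted p of 0.0182. Leaving out neocortical array 1, 2 or 3 gave limma adjusted p values of 0.0855, 0.0599 and 0.0682, with log2 differences of -0.70, -0.78 and -0.78, so the call was lost each time while the size of the difference stayed near that of all arrays. Leaving out any 1 cerebellar array kept the call, and over 15 alternatives the adjusted p ran from 0.0104 to 0.0855. Of 7 tested oligodendrocyte lineage markers, Olig1 and Olig2 were also lower in cerebellar astrocytes, Mbp was higher and 4 did not pass. Of the 12 astrocyte markers, Slc1a3, Glul, Aldoc and Fgfr3 were lower, Aqp4 was higher and 7 did not pass. The part of cell composition in the Adcy2 difference was not tested. In bulk samples like these, fewer cells with Adcy2 transcript and less of it per cell cannot be told apart.

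The genes with a pattern over the 6 arrays most like that of Adcy2, by the root mean square difference of log2 signal after each gene's own mean was subtracted, were Kiz, Acyp1 and Clip4, at 0.023, 0.0515 and 0.0563 among 12636 other genes. Kiz read 3664, 4555 and 3822 on the cerebellar and 7250, 6664 and 6711 on the neocortical arrays. As for Adcy2, cerebellar array 2 was the highest of its group and neocortical array 1 the highest of the other. Kiz was picked for its likeness over these same arrays, so the shared order follows from that choice.

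The start of Adcy2 is shown because it is the gene whose signal differed, and that of Adcy1, a calcium-stimulated cyclase whose signal did not pass, is set beside it. Both sequences come from RefSeq (GRCm38.p6) and cover bases upstream of an annotated transcription start and outside the annotated gene. They are written 5′ to 3′ along the gene's strand, with each GC box (GGGCGG on either strand) in capitals.
Adcy2, chr13:68999601-68999791, minus strand: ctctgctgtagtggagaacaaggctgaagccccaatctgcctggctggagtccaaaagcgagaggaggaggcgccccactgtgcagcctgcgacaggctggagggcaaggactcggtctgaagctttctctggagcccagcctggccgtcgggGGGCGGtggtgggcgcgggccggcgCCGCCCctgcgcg
Adcy1, chr11:7063183-7063432, plus strand: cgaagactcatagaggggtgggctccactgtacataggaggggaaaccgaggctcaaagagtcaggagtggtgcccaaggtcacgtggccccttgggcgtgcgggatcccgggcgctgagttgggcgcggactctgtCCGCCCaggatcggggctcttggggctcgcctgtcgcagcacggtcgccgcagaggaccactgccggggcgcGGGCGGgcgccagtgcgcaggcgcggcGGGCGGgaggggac
The Adcy2 stretch held 2 GC boxes and the Adcy1 stretch 3. Over 250 bases upstream of each start, 32.7% of all 32851 promoter windows held a GC box, as did 8 of the 13 windows of the 7 genes of the set with an entry. The 13 include overlapping windows of Gnas. The full cAMP response element (TGACGTCA, the same on both strands and unable to overlap a GC box) was in 1.55% of all windows and in none of the 13. Adcy6, Adcy8 and Gnal had no entry. The GC content was 73.2% for the Adcy2 and 71.2% for the Adcy1 window, against a median of 52.4% over all windows. A match describes letters in a window and not a binding site.

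Adcy7 is the cyclase best known from blood and immune cells. Its brighter tested probe set (1456307_s_at) read 611, 1044 and 873 on the cerebellar and 799, 1190 and 664 on the neocortical arrays. The groups overlapped throughout, and the log2 difference was -0.06 ± 0.27 (SE, limma adjusted p = 0.918, interval -0.67 to 0.55). The second tested probe set (1450065_at) read 130, 378 and 386 on the cerebellar and 209, 478 and 151 on the neocortical arrays, with 3 arrays in the dim range. Its log2 difference was 0.11 ± 0.553 (SE, limma adjusted p = 0.928). The sign of both differences turned when single arrays were left out.

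The brighter Adcy7 probe set had the same array order within each region as the markers of microglia, the immune cells of the brain. The summed signal of 12 microglial markers was 9411, 48951 and 31648 on cerebellar arrays 1 to 3 and 24791, 39548 and 14500 on neocortical arrays 1 to 3. Cerebellar array 1 and neocortical array 3 had the lowest sums and also the lowest signal of both tested Adcy7 probe sets within their region. The third Adcy7 probe set (1420970_at) did not pass the brightness filter and had 5 arrays in the dim range. It was lowest on cerebellar array 3 and neocortical array 1, at 181, 300.5 and 133.9 on the cerebellar and 39.6, 194 and 175.7 on the neocortical arrays. On the brighter probe set array 2 was the highest of its region in both groups, as it was for the marker sum. None of the 12 microglial markers passed the test between regions, and none was in the dim range on all 6 arrays. The oligodendrocyte lineage sums had the same array order, at 54286, 83709 and 57100 on cerebellar and 81108, 86022 and 74204 on neocortical arrays. So did the ependymal and choroid plexus sums, at 8061, 15143 and 11305 on cerebellar and 16138, 17597 and 13740 on neocortical arrays. The order of the sums was thus not particular to the microglial list. Gene by gene, every microglial marker but Trem2 and P2ry12 had it. Cnp made up most of the oligodendrocyte lineage sum, at 43040, 66200 and 46280 on the cerebellar arrays. Olig1 had another order there, at 8079, 12980 and 6659. Foxj1, the brightest of the ependymal and choroid plexus list, had another order on the neocortical arrays, at 9022, 8931 and 7979. The part of RNA from microglia or from the cells of the other lists in the Adcy7 signal was not tested.

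**Figure D2:**
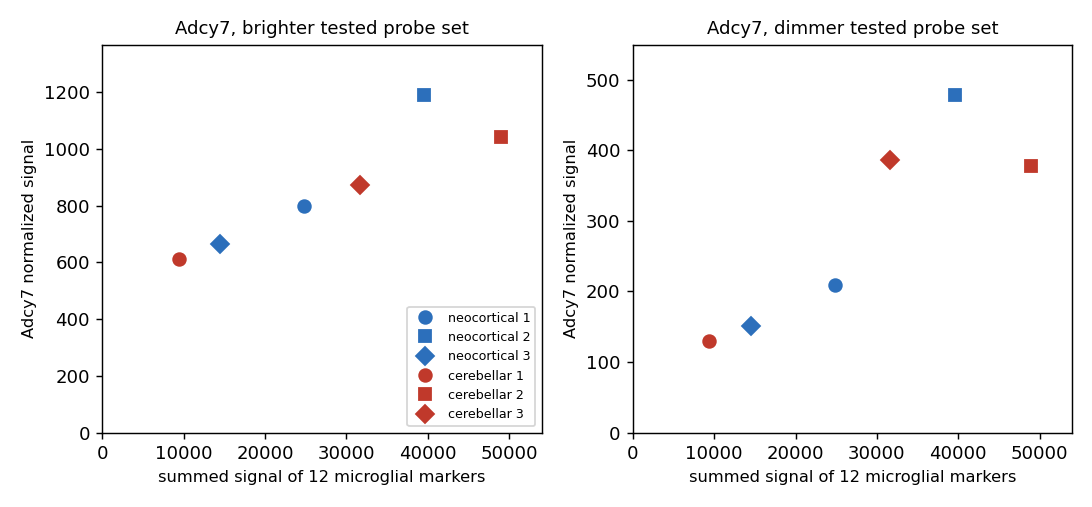
Adcy7 signal (y axis, normalized, arbitrary units, from 0) against the summed signal of 12 microglial markers (x axis) on each of the 6 arrays, for the brighter (left) and dimmer (right) tested Adcy7 probe set; red is cerebellar and blue neocortical. On both panels cerebellar array 1 has the lowest values on both axes and neocortical array 3 the second lowest, and no separation by region is seen.

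The calcium-stimulated cyclases Adcy1, Adcy3 and Adcy8 did not pass the test, and their fitted differences did not share a direction. Adcy8, a calcium- and calmodulin-stimulated enzyme, read 828, 832 and 796 on the cerebellar and 484, 676 and 553 on the neocortical arrays. The groups did not overlap, an order with cerebellar above that 16.6% of all tested probe sets showed. Its log2 difference was 0.53 ± 0.19 (SE), with an interval from 0.10 to 0.96, a limma adjusted p of 0.11 and a range of 0.0613 to 0.296 over 15 alternatives. Adcy3, a cyclase of primary cilia, read 1149, 1198 and 1170 on the cerebellar and 1823, 1516 and 1433 on the neocortical arrays with its brightest probe set (1421960_at). Here every cerebellar array was below every neocortical one, as for 15.8% of all tested probe sets. The log2 difference was -0.43 ± 0.145 (SE, interval -0.76 to -0.10, limma adjusted p = 0.0933). A second Adcy3 probe set (1436928_s_at) gave -0.39 ± 0.215 (SE, limma adjusted p = 0.284) with overlapping groups, and the other two were in the dim range on every array.

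Adcy1, the other classical calmodulin-stimulated cyclase, was read by a bright and a dim probe set. The bright one (1456487_at) read 1561, 2018 and 1538 on the cerebellar and 2258, 1970 and 2178 on the neocortical arrays. The groups overlapped through cerebellar array 2 and neocortical array 2 alone. The log2 difference was -0.33 ± 0.148 (SE, interval -0.67 to 0.00, limma adjusted p = 0.191), and without cerebellar array 2 it was -0.46 (limma adjusted p = 0.0824). The dim probe set (1445359_at) had 3 arrays in the dim range and a log2 difference of -0.47 ± 0.477 (SE, limma adjusted p = 0.584), which was 0.030 without cerebellar array 3.

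Adcy5 and Adcy6, the closely related cyclases that calcium and inhibitory G alpha restrain, gave overlapping groups on every tested probe set. Adcy6 had a single probe set, which read 2137, 2187 and 2736 on the cerebellar and 2513, 1934 and 2230 on the neocortical arrays. Its log2 difference was 0.08 ± 0.151 (SE, limma adjusted p = 0.787), and the interval from -0.26 to 0.42 leaves out a change of 1.5-fold or more in either direction. Scaling the arrays to a common median turned the sign, to -0.059. The brightest Adcy5 probe set (1455296_at) read 444, 481 and 664 on the cerebellar and 562, 314 and 549 on the neocortical arrays. The Adcy5 log2 differences were 0.18 ± 0.291 and 0.43 ± 0.283 (SE, limma adjusted p = 0.74 and 0.375) for its 2 tested probe sets. The other two lay in the dim range on all arrays.

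Adcy9, a cyclase that forskolin, a plant compound that activates the other membrane forms, stimulates poorly, was read by 4 probe sets, and all 4 fitted differences were below 0. The dimmest (1434454_at) read 269, 279 and 237 on the cerebellar and 439, 463 and 439 on the neocortical arrays, with means of 261.4 ± 22.1 and 446.9 ± 13.8 (SD, n = 3 each). The groups were far apart relative to their spread, but 1 cerebellar array lay in the dim range. The log2 difference was -0.78 ± 0.239 (SE, interval -1.32 to -0.24) and did not pass (limma adjusted p = 0.0725). It passed without a variance trend in the fit (limma adjusted p = 0.0207) and with a floor at the 40th percentile (0.0385), in a range up to 0.197 over 14 alternatives. The brightest Adcy9 probe set (1418586_at) read 1324, 1226 and 1323 on the cerebellar and 1418, 1506 and 1406 on the neocortical arrays. Its groups did not overlap either, although they did in the deposited values, before quantile normalization. The log2 difference of this probe set was -0.16 ± 0.13 (SE, interval -0.46 to 0.13, limma adjusted p = 0.476). The other 2, 1449620_s_at and 1419811_at, gave -0.31 ± 0.171 and -0.15 ± 0.176 (SE, limma adjusted p = 0.285 and 0.639). The groups of 1449620_s_at did not overlap after normalization but did in the deposited values. Differences between the 4 probe sets were not tested.

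**Figure D3:**
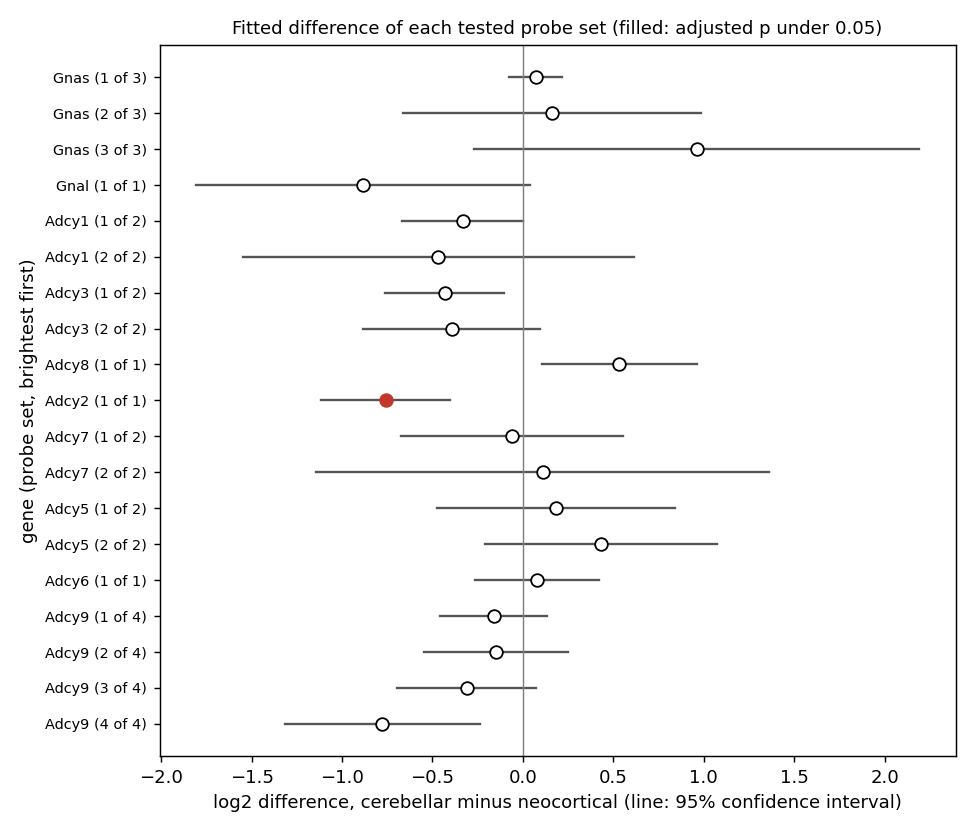
Fitted log2 difference (cerebellar minus neocortical, x axis) of each of the 19 tested probe sets, with its 95% confidence interval as a line; probe sets are ordered by gene and then by brightness, and a filled circle marks an adjusted p under 0.05. Only the Adcy2 probe set, at -0.76, is filled, and the 4 Adcy9 probe sets lie between -0.78 and -0.15.

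Gnas, which encodes Gs alpha, did not pass the test between regions. Its main probe set (1450186_s_at) read 76110, 79930 and 73290 on the cerebellar and 73290, 71360 and 73640 on the neocortical arrays. The groups overlapped, and the means were 76445 ± 3330 and 72764 ± 1230 (SD, n = 3 each). The log2 difference was 0.07 ± 0.0641 (SE, limma adjusted p = 0.533), with an interval from -0.07 to 0.22. In the deposited values, before quantile normalization, the same probe set read 81308, 85351 and 78725 on the cerebellar and 70887, 66307 and 66448 on the neocortical arrays, without overlap. On that scale the log2 difference was 0.27 with a limma adjusted p of 0.0568, while scaling to a common median gave 0.10 (limma adjusted p = 0.681). The size of the Gnas difference therefore depended on the scaling, and it did not pass under any of the 3.

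The Gnas locus is imprinted and makes several transcripts from different promoters, and it had 5 probe sets. Of the promoter windows, 4 were for Gnas, and those that start at 174327499 and 174327518 on chromosome 2 overlap almost entirely. Probe sets 1421740_at and 1427789_s_at were under the floor of 62.2 on all 6 arrays. Probe sets 1453413_at and 1443375_at, with 4 arrays each in the dim range, gave log2 differences of 0.16 ± 0.363 and 0.96 ± 0.544 (SE, limma adjusted p = 0.823 and 0.301). Which transcript each probe set reads was not determined here.

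Gnal encodes Golf alpha, the stimulatory subunit known from olfactory neurons and the striatum. Its tested probe set (1439957_at) read 210, 426 and 203 on the cerebellar and 367, 811 and 383 on the neocortical arrays. Cerebellar arrays 1 and 3 lay in the dim range. Array 2 was well above the others in both groups, and cerebellar array 2 overlapped the neocortical range. The means were 279.5 ± 127 and 520.2 ± 252 (SD, n = 3 each), and the log2 difference was -0.88 ± 0.408 (SE, interval -1.81 to 0.04, limma adjusted p = 0.208). With the array number as a block the limma adjusted p was 0.0645. The other 2 Gnal probe sets did not pass the brightness filter, and they had 5 and 6 arrays in the dim range.

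Of the other genes that carry the cAMP signal, several had larger fitted differences than any probe set of the set, in both directions. Of 125 genes listed by role, 108 had a probe set named in the annotation and 80 passed the filter with their brightest one. Cerebellar signal was higher for 8 of these and lower for 7, and 65 did not pass, against 5.4% higher and 7.47% lower over all 12637 genes tested in the same way. The median log2 difference of the 80 was -0.01. Without neocortical array 1 or 2 there were 4 of each, and without neocortical array 3 there were 5 higher and 3 lower. Calls over all probe sets tested also fell, from 10.7% to 4.93%, 5.17% and 4.51% without neocortical array 1, 2 and 3. Of the 15 calls, 7 held whichever array was left out (Ptger4, Gnao1, Gng3, Nr4a3, Pde1a, Pde3b and Pde7b).

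Upstream of the cyclases, 1 of 8 tested Gs-coupled receptor genes passed and 7 did not, and the median log2 difference of the 8 was -0.27. Ptger4, a receptor for prostaglandin E2, was higher in cerebellar astrocytes, at 1367, 620 and 771 against 202, 202 and 252. Its fitted log2 difference was 2.00 (interval 1.29 to 2.71, limma adjusted p = 0.00505), but all neocortical arrays lay in the dim range. Measured against the top of that range, the cerebellar mean on the log2 scale was 3.37-fold higher, a point estimate that leaves out the spread among arrays. Of 5 inhibitory G alpha genes 1 was lower. Gnao1, which encodes the Go alpha subunit, read 817, 898 and 1203 on the cerebellar and 3398, 3655 and 3902 on the neocortical arrays, a fitted 3.8-fold lower signal (limma adjusted p = 2.51e-04). Of 11 beta and gamma subunit genes 2 were lower and 1 was higher. Gng3, a gamma subunit gene of the nervous system, was 8.36-fold lower, at 452, 366 and 197 against 2951, 2332 and 2770, with 1 cerebellar array in the dim range (limma adjusted p = 4.13e-04). Gnb4 was 1.76-fold higher (limma adjusted p = 0.0196) and Gnb5 1.29-fold lower (limma adjusted p = 0.0481, and 0.0667 with the array number as a block). The Gnb4 call was lost without neocortical array 1, 2 or 3 (0.0551, 0.0657 and 0.0848), and the Gnb5 call without any 1 of the 6 arrays (0.0722 to 0.171). Gnao1 and Gng3 are both also expressed by neurons. In the same arrays the oligodendrocyte lineage markers Olig1 and Olig2 were lower, Mbp was higher and the other 4 tested did not pass. On the neuronal marker list 2 of 7 tested genes, Syt1 and Gad1, were lower in cerebellar astrocytes. The other 5 did not pass, with log2 differences of -1.09 for Syp, 0.75 for Nefm, 0.56 for Rbfox3 and 0.14 for both Calb1 and Stmn2, and the median of the 7 was 0.14. The summed signal of the list was 8241 to 20630 on cerebellar and 10767 to 14734 on neocortical arrays. The part of RNA from neurons or oligodendrocyte lineage cells in these differences was not tested. None of 6 tested G alpha chaperone and cyclase-binding genes passed in limma (none at an unadjusted p under 0.05 either). The brightest, Cap1, which encodes a cyclase-associated protein, had a log2 difference of 0.15 ± 0.1 (SE, limma adjusted p = 0.391).

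Of the cyclase genes outside the set, neither Adcy4 nor Adcy10, the soluble form, passed the brightness filter. Adcy4, the remaining beta-gamma-stimulated cyclase, read 223, 296 and 102 on the cerebellar and 21.8, 24.4 and 113 on the neocortical arrays, of which 1 was above the dim range. Adcy10 lay in the dim range throughout.

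Downstream, 1 of 8 protein kinase A genes, 1 of 11 anchoring protein genes and 1 of 3 other effector genes passed. Pkia, an inhibitor of the kinase, was 1.44-fold lower in cerebellar astrocytes, and Rapgef3, the cAMP-activated exchange factor Epac1, was 1.55-fold lower, at 2133, 2699 and 2382 against 3790, 3789 and 3559 (limma adjusted p = 0.0123 and 0.0128). Akap12, an anchoring protein, was 1.63-fold higher (limma adjusted p = 0.0349). Without neocortical array 1, 2 or 3 the adjusted p was 0.119, 0.117 and 0.0698 for Akap12 and 0.0623, 0.0563 and 0.0506 for Rapgef3, and for Pkia it was 0.0591 without neocortical array 1 and 0.0672 without neocortical array 3. Akap12 signal was highest on cerebellar array 3, at 49370 against 31750 and 30290 on cerebellar arrays 1 and 2. The fibroblast markers also summed highest there, at 238025 against 68422 and 138326, but arrays 1 and 2 had opposite orders. On neocortical arrays 1 to 3 Akap12 read 20640, 21370 and 25070, and the fibroblast sums were 117439, 93376 and 144353. Without cerebellar array 3 the Akap12 log2 difference was 0.47, and the call held (limma adjusted p = 0.0328). The part of fibroblast RNA in that difference was not tested.

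Of 6 genes of the CREB family and its coactivators, Creb1, the transcription factor that protein kinase A activates, was 1.6-fold higher in cerebellar astrocytes (limma adjusted p = 0.0184). That call was lost without neocortical array 1, 2 or 3 or cerebellar array 3 (0.0808, 0.054, 0.0591 and 0.0508). Of 12 known CREB targets 2 were higher and 1 was lower. Nr4a3, a nuclear receptor gene induced by cAMP, was 2.52-fold higher, at 5839, 6124 and 4327 against 2100, 2582 and 1785 (limma adjusted p = 0.0021), and Bdnf, a neurotrophin gene, was 1.78-fold higher (limma adjusted p = 0.0141, with 0.0591 and 0.0583 without neocortical array 1 or 2). Among 12 tested cAMP phosphodiesterases, which break the messenger down, 2 were higher and 2 lower. Pde7b and Pde3b were 2.07-fold and 2.05-fold higher, and Pde1a and Pde4b, the latter also counted as a CREB target, were 1.84-fold and 1.85-fold lower (limma adjusted p = 0.00592, 0.00918, 0.00752 and 0.0206). The Pde4b call was lost without neocortical array 2 or 3 (0.0872 and 0.0839).

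**Figure D4:**
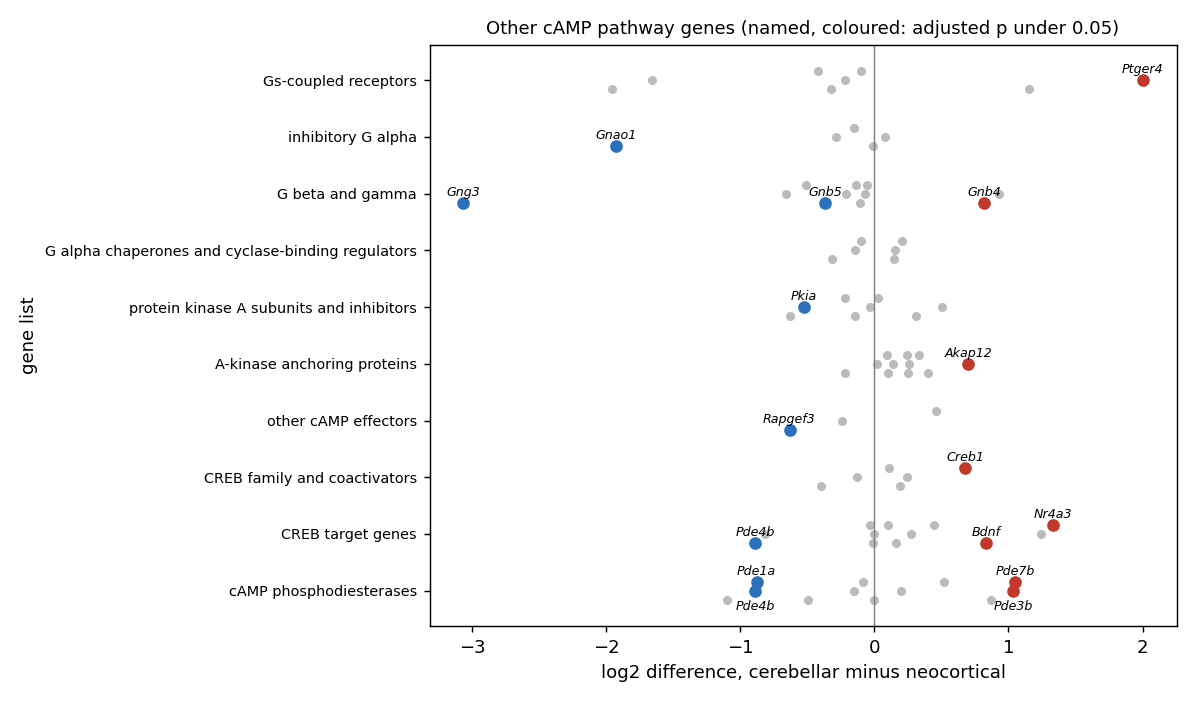
Log2 difference (cerebellar minus neocortical, x axis) of the brightest probe set of each tested gene in 10 lists of other cAMP pathway genes; named points in red (higher) or blue (lower) had an adjusted p under 0.05 and grey points did not. The lowest point is Gng3 at -3.06. The highest, Ptger4, is drawn at its fitted 2.00 although its neocortical arrays lay in the dim range, and most lie within 1 log2 unit of 0.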

How the data were processed

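The authors deposited linear intensity values, 1 for each probe set on each array; the sources used here do not give how probes were summarised. The trimmed mean (2% off each end) was near 1500 on every array, and the medians ran from 284.7 to 361.2. The 64 control probe sets were set aside and the other 45037 quantile normalized, floored at the 20th percentile and log2-transformed. The 27022 with a mean over the 6 arrays of at least 183.7, the 40th percentile, entered the test with limma 3.58.1 under R 4.3.3 (lmFit, eBayes with a variance trend, two-sided), checked on simulated data. The platform annotation named 1 gene for 34945 probe sets, several for 932 and none for 9160; 34741 symbols were updated by Entrez ID through the GRCm38.p6 gene table, and no member probe set had several. A gene outside the set was represented by its brightest probe set. Genes named from the pathway lists are up to 4 past the threshold per list, or the brightest where none passed. The named nearest patterns are the 3 closest genes. The members and lists were chosen with earlier results of these data known. After subtracting group means, arrays with the same number in both regions correlated at 0.182, 0.186 and 0.101, and other pairs at -0.184 to 0.0261. The labels do not say what the numbers share, so the pairing comes from these correlations. Alternatives covered scaling, floor, filter, variance model, probe set choice, the number as a block and leaving out each array. With 3 arrays a group, their number limits the precision.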

Additional observations from a re-analysis of the deposited data

How the results depend on the processing

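The count of probe sets of the set that were lower in cerebellar astrocytes was 1, and it became 2 with the floor at the 40th percentile or without a variance trend, the addition being Adcy9 (1434454_at). It was 0 to 1 with 1 array left out, and none was higher in any of 15 alternatives. With 1 array left out, 4.51% to 10.4% of all probe sets tested were called, against 10.7% with all arrays. Adcy2 was called with the replicate block too (limma adjusted p = 0.0251). Among the other pathway genes, the higher count of 8 fell to 3 with no filter, where 45037 probe sets were tested, and was 4 to 10 with 1 array left out. The lower count of 7 became 12 with arrays scaled to a common median, 11 when all probe sets of a gene were averaged, 4 without a variance trend, 4 with suffixed probe sets left out, and 3 to 9 with 1 array left out. The replicate block gave 9 and 9, and it ended 1 of these 15 calls, Gnb5, and none of the set. Scaling to a common median shifted the median log2 difference over everything tested from 0.01 to -0.10 and their counts from 1337 higher and 1567 lower to 821 and 2121. The cause of these shifts was not tested. Signs that turned were of differences that did not pass. Scaling to a common median gave -0.059 for Adcy6 and -0.052 for Cap1, and the values as deposited gave 0.033 for Adcy7 (1456307_s_at). With 1 array left out, differences ranged from -0.79 to 0.030 for Adcy1 (1445359_at), -0.091 to 0.33 for Adcy5 (1455296_at), -0.034 to 0.17 for Adcy6, -0.25 to 0.63 for Adcy7 (1450065_at), -0.24 to 0.17 for Adcy7 (1456307_s_at) and -0.090 to 0.39 for Gnas (1453413_at). Dim probe sets had the widest errors.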
